A study of Mus musculus with 18 samples.

Results

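The genes that encode the translation initiation factors were followed in mouse brown preadipocytes, the precursor cells of brown fat, after stimulation with fibroblast growth factor 6 (FGF6). They were taken as the protein-coding genes of the mouse annotation (GENCODE release M21, GRCm38) whose symbol begins with Eif followed by a digit from 1 to 6, whatever their counts. There were 55 such genes among the 48023 in the count table, and 53 of them were among the 15071 with enough counts for a test. The cells were a line immortalized with SV40 T antigen, so every group shares that transgene and its origin from 1 line. They were given vehicle (Veh) or FGF6, at 200 ng/ml according to the description of the study's supplementary data, and total RNA was sequenced after 4, 8, or 24 h, with 3 libraries in each of the 6 groups. Whether libraries of a group came from separate cultures is not given by the labels, so p-values measure the spread between these libraries, which may be technical.

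The 18 libraries held from 24327816 to 33471980 counts, and 3 counts, the floor used below, corresponded to between 0.0905 and 0.126 CPM (counts scaled to a common library size). Levels are given as CPM after TMM scaling, and a gene is called where its p from the quasi-likelihood test of edgeR, adjusted over all 15071 genes after Benjamini and Hochberg, was under 0.05. Vehicle replicate 3 at 24 h stood apart from the other libraries of its group. Its counts differed from theirs by a chi-square per degree of freedom of 37.9 and 41.3, against 2.44 to 7.63 for all other pairs within groups, so the 24 h results are also given without it. Of 10 preadipocyte and stromal markers, 9 were over the floor in every group and Dlk1 was at 0. At 24 h their summed level was 6580 to 6900 CPM with FGF6 and 9470 to 9910 CPM with vehicle. Means in CPM with FGF6 and with vehicle were lower for Col1a1 (443 and 3110), Col3a1 (647 and 1740), Pdgfrb (134 and 693), and Pdgfra (91.5 and 280). They were also lower for Ly6a (32.3 and 243), Ebf2 (42.1 and 54.8), and Thy1 (55.7 and 63.6). Only Vim (5240 and 3480) and Cd34 (43.0 and 16.5) were higher. Of 6 mature adipocyte markers, Lep was at 0 in all groups, and nearly all of the summed level came from Fabp4, with a mean of 66.9 CPM with FGF6 and 160 CPM with vehicle at 24 h, when the other 5 were under 1 CPM or at 0. Summed levels at 24 h with FGF6 and with vehicle were 3.71 to 5.65 and 0.965 to 1.30 CPM for 4 endothelial markers, 3.32 to 3.97 and 6.39 to 7.92 CPM for 4 macrophage and leukocyte markers, 1.60 to 2.13 and 5.74 to 6.68 CPM for 4 muscle markers, and 1.57 to 2.57 and 0.168 to 0.490 CPM for 4 epithelial markers. The part of these markers in the results below was not tested, and in bulk RNA fewer cells of a type and less RNA per cell cannot be told apart.

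Initiation is the step at which the small ribosomal subunit is loaded onto an mRNA and finds its start codon. The eIF4 proteins bind the cap and unwind the leader, eIF2 with GTP brings the initiator tRNA, eIF2B recharges eIF2 with GTP, eIF3 holds the assembly together, and eIF1, eIF1A, eIF5, and eIF5B govern scanning, start codon choice, and joining of the large subunit. Growth factor signaling is known to act on this step through phosphorylation of eIF4E and its binding proteins, and stress acts through kinases that phosphorylate eIF2 alpha. Such protein modifications are not seen in mRNA counts.

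Initiation factor mRNAs were mostly higher with FGF6 at every time point. At 4 h, 38 of the 53 tested genes rose (71.7%), against 28.6% of all genes tested, and 5 fell (9.43%), against 34.2%. With library sizes alone the split at 4 h was 33 higher and 10 lower. Over all 15071 genes, that scaling gave 3242 higher and 6495 lower, against 4308 and 5152 as reported. Without FGF6 replicate 1, 2, or 3 the count of initiation factor genes lower was 3, 3, and 2. At 8 h, 41 rose (77.4%; all genes 32.4%) and 5 fell (9.43%; all genes 38.4%). At 24 h, 41 rose (77.4%; all genes 35.9%) and 6 fell (11.3%; all genes 37.9%), and without vehicle replicate 3 the counts were 43 and 5. The rises were mostly moderate: 6, 15, and 16 genes rose by at least 1.5-fold at 4, 8, and 24 h, which for all genes was 9.7%, 13.8%, and 15.3%. Falls of that size were seen for 1, 2, and 2 genes, against 13.7%, 19.6%, and 23.0% of all genes.

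**Figure D1:**
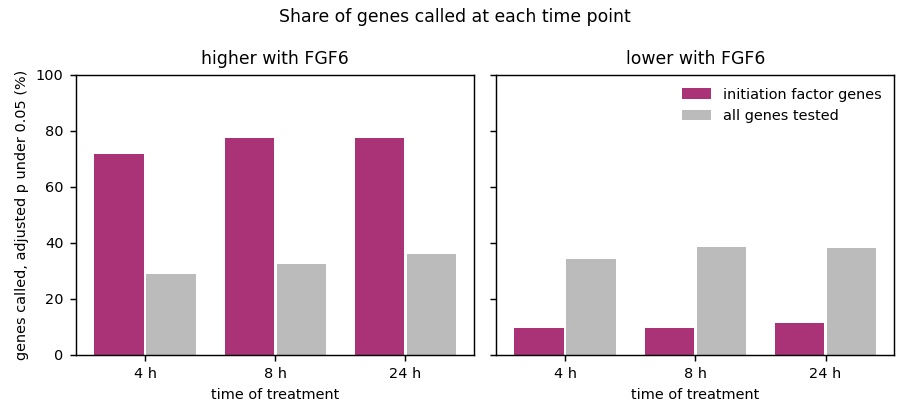
Bars give the percent of genes called higher (left) or lower (right) with FGF6 at an adjusted p under 0.05, at 4, 8, and 24 h, for the 53 initiation factor genes tested (purple) and all 15071 genes tested (grey). The purple bars for higher genes stand at 71.7%, 77.4%, and 77.4%, against grey bars of 28.6%, 32.4%, and 35.9%.

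The libraries themselves gave the same picture. No vehicle library reached the lowest FGF6 library for 39, 40, and 40 of the 53 genes at 4, 8, and 24 h, against 30.1%, 34.2%, and 36.7% of all genes, and the FGF6 libraries all lay below for 5, 5, and 6 genes, against 36.1%, 39.6%, and 38.1%. The median log2 fold change of the 53 genes was 0.25, 0.34, and 0.42, and that of all genes was -0.0482, -0.0502, and -0.0218. Scaling by library sizes alone moved the median of all genes to -0.15 at 4 h and -0.11 at 8 h, and the median of the initiation factor genes then lay above that of all genes by 0.29 and 0.39. Called higher at all 3 times were 34 genes, against 20.4% of all genes, and only Eif2ak3 was called lower at all 3, against 23.0%. With library sizes alone these counts were 30 and 3, and with upper-quartile factors 31 and 2. The shares of all genes called at all 3 times were not computed under these scalings. Eif2ak4, Eif2b5, Eif4g3, and Eif5a2 were called in opposite directions at different times, which 8.19% of all genes were. Of these 4, Eif2ak4 kept both calls under every other tool, scaling, filter, and block tried, whereas the falls of Eif2b5 and Eif4g3 at 4 h were lost with DESeq2 (-0.0576 and -0.11) and that of Eif5a2 at 24 h with DESeq2 (-0.0938) and limma with voom (-0.11). With library sizes alone or upper-quartile factors, Eif2b4 and Eif4g2 were called in both directions as well. The share of all genes called in both directions was not computed under these scalings. Eif4ebp3, at 3 to 19 counts per library, was never called. The 2 genes not tested were Eif2s3y, with at most 1 count in any library, and Eif4e1b, with 0 counts in all of them.

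**Figure D2:**
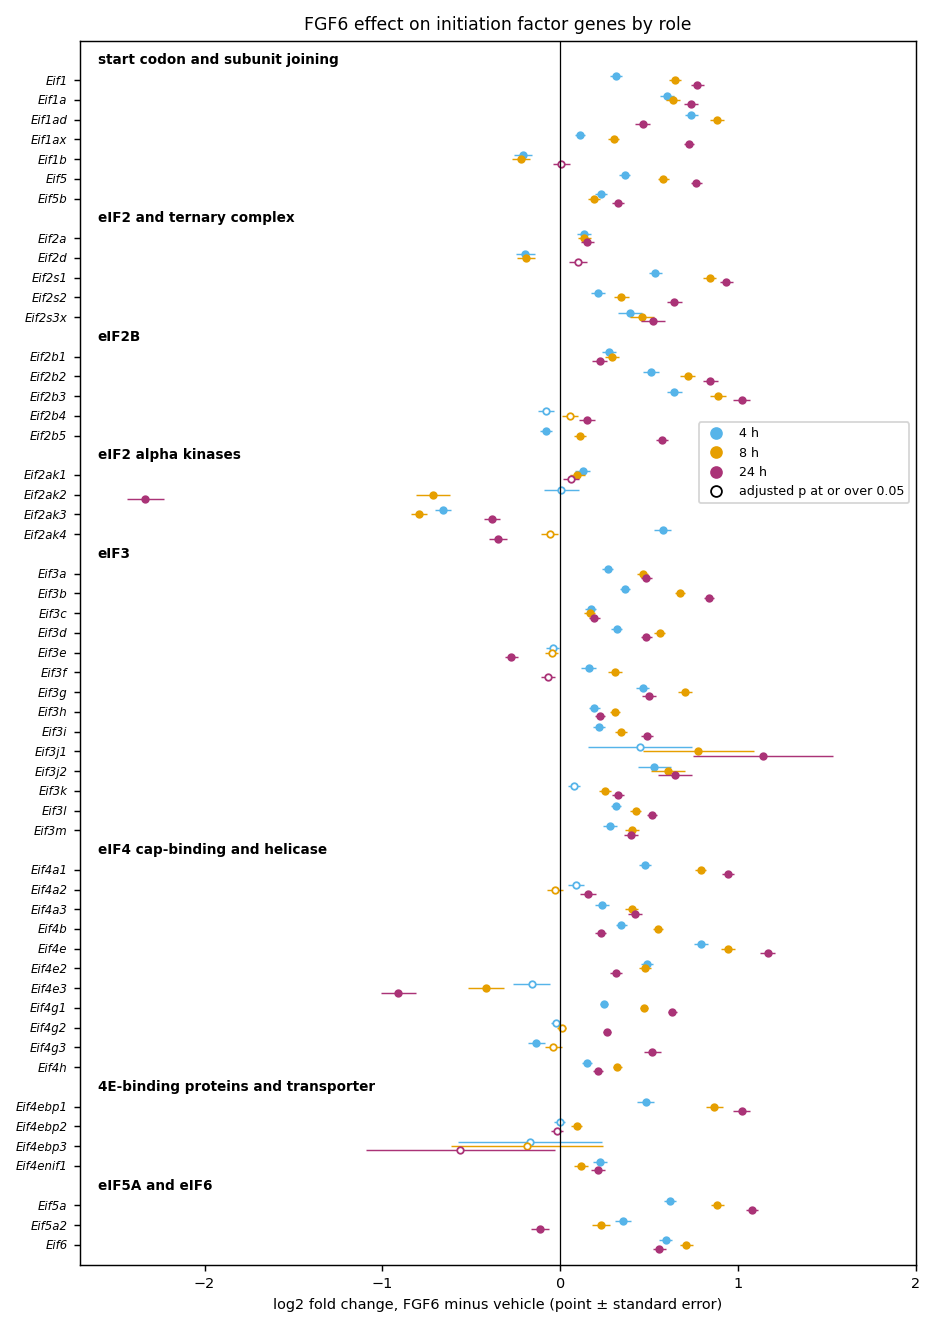
Each row is an initiation factor gene, grouped by role, and the horizontal axis is the log2 fold change of FGF6 over vehicle with its standard error at 4 h (blue), 8 h (orange), and 24 h (purple). Open points did not pass the adjusted p of 0.05. Most points lie to the right of 0, and the farthest to the left is Eif2ak2 at 24 h, at -2.33.

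Among the eIF4 genes, which encode the cap-binding complex, the helicases, and their partners, 7 of 11 tested rose at 4 h, 7 at 8 h, and 10 at 24 h (all genes 28.6%, 32.4%, and 35.9%), and 1 fell at each time (all genes 34.2%, 38.4%, and 37.9%). With library sizes alone 3 fell at 4 h and 2 at 8 h, when 6495 and 6407 of all 15071 genes fell. Eif4e encodes the cap-binding protein itself, and lies at chromosome 3 from 138526179 to 138559696 on the plus strand. At 4 h its level was 99.5, 101, and 107 CPM in the vehicle libraries and 169.8, 179, and 185 CPM in the FGF6 libraries. At 8 h it was 90.8, 88.6, and 95.3 CPM with vehicle and 174, 176, and 179 CPM with FGF6. At 24 h it was 88.1, 90.5, and 96.7 CPM with vehicle and 215, 204, and 199 CPM with FGF6. All FGF6 libraries lay far above all vehicle libraries at each time. The log2 fold change was 0.79 ± 0.0413 (SE; edgeR adjusted p = 1.06e-14), 0.94 ± 0.0415 (adjusted p = 1.85e-16), and 1.17 ± 0.0417 (adjusted p = 1.64e-18) at 4, 8, and 24 h. The effect was larger at 24 h than at 4 h by 0.37 (edgeR interaction, adjusted p = 6.08e-06).

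The eIF4A helicases, which unwind structure in the mRNA leader, did not move alike. Eif4a1 was at 85.7, 87.2, and 88 CPM in the vehicle libraries at 24 h and at 169.9, 168, and 164 CPM in the FGF6 libraries. Its log2 fold change was 0.48, 0.79, and 0.94 ± 0.0323 at 4, 8, and 24 h (edgeR adjusted p = 6.77e-19 at 24 h). Eif4a2 overlapped between the groups at 4 h (289.9, 309, and 318 CPM with vehicle and 313, 326, and 336 CPM with FGF6) and at 8 h (313, 327, and 329 and 311, 326, and 314 CPM). Its value of 0.0878 at 4 h was not called, but passed with DESeq2 (0.11), with either other filter (0.0956 and 0.12), with only the libraries compared (0.13), and without FGF6 replicate 1 (0.15) or 2 (0.13) or vehicle replicate 3 (0.12). At 24 h it was 225, 220.1, and 228 CPM with vehicle and 266, 257, and 228 CPM with FGF6, a rise of 0.16 ± 0.0447 (edgeR adjusted p = 0.00263) in which the lowest FGF6 library nearly touched the highest vehicle library. Counts of both genes carry some uncertainty: 28.4% of the 50-base stretches of Eif4a1 and 13.6% of those of Eif4a2 also occur in other annotated genes, among them a pseudogene of Eif4a1 and small RNAs inside both genes. Eif4a3, the related helicase of the exon junction complex, rose at all 3 times, by 0.24, 0.40, and 0.42.

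The scaffold Eif4g1, which joins the cap-binding protein to the helicase and to eIF3, was at 1317, 1329, and 1284 CPM with vehicle and 1526, 1560, and 1576 CPM with FGF6 at 4 h. By 24 h the vehicle libraries were at 1053, 1044, and 1061 CPM and the FGF6 libraries at 1628, 1649, and 1617 CPM. The groups never overlapped, and the log2 fold change was 0.25 ± 0.0228, 0.47 ± 0.0228, and 0.63 ± 0.0229 (edgeR adjusted p = 7.41e-10, 1.22e-15, and 2.19e-18). Its paralog Eif4g3 changed direction. It was at 47.4, 47.6, and 46.5 CPM with vehicle and 43.3, 41.9, and 43.8 CPM with FGF6 at 4 h, and at 36.5, 38.8, and 38.3 CPM and 50.2, 57.7, and 54.8 CPM at 24 h. The log2 fold change went from -0.13 at 4 h (edgeR adjusted p = 0.0163) through -0.0386 at 8 h (adjusted p = 0.48) to 0.52 at 24 h (adjusted p = 3.2e-10), and the difference between 4 and 24 h was 0.65 (adjusted p = 7.8e-09). The fall at 4 h was not called with DESeq2 (-0.11), without a filter (-0.13), with only the libraries compared (-0.0925), or without FGF6 replicate 1, 2, or 3 (-0.10, -0.0747, and -0.11). Eif4g2, a relative that lacks the eIF4E-binding part and works in cap-independent initiation, was not called at 4 or 8 h (log2 fold change -0.0258 and 0.00914; called lower with library sizes alone, at -0.13 and -0.0548) and rose by 0.26 at 24 h (edgeR adjusted p = 6.21e-10).

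The cap-binding relatives of Eif4e went different ways. Eif4e2, whose product competes for the cap and represses translation, rose by 0.49, 0.48, and 0.31 at 4, 8, and 24 h. Eif4e3, an atypical cap-binding protein, fell at 8 and 24 h. Its vehicle libraries were at 7.07, 9.03, and 7.74 CPM at 4 h and 13.5, 15.4, and 14.1 CPM at 24 h, whereas the FGF6 libraries were at 7.47, 6.95, and 6.95 CPM and 7.51, 6.93, and 8.48 CPM. The groups overlapped at 4 h (log2 fold change -0.16, edgeR adjusted p = 0.187; called at -0.26 with library sizes alone) and were separate at 8 h (-0.42, adjusted p = 0.000848) and 24 h (-0.91 ± 0.097, adjusted p = 5.35e-09). In vehicle cells Eif4e3 rose from 8 to 24 h by 0.67 (adjusted p = 1.6e-06), so the FGF6 libraries stayed near the level that vehicle cells had at 4 h. Of its exon, 373 bases are shared with an overlapping gene, Gm20696, on the same strand. The helicase cofactors Eif4b and Eif4h rose at all 3 times, by 0.23 and 0.21 at 24 h, and Eif4h was not called at 4 h with library sizes alone (0.0506).

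The start regions of these genes were read from RefSeq promoter windows (GRCm38.p6; 250 bases before and 50 after a start), to see which letters known as transcription factor sites they share. The E-box CACGTG is a known site of growth-related factors such as MYC. Windows were found for 43 of the 55 genes. CACGTG, which reads the same on both strands, was in a window of 10 of the 43 genes (23.3%), against 8.09% of the 27025 genes with a window. Of the 30 tested genes with a window that did not rise by at least 1.5-fold at 24 h, 6 held it (20%). Of these 6, Eif3a and Eif4h rose at all 3 times, and Eif3k at 8 and 24 h. Eif3f and Eif5a2 rose at 4 and 8 h, Eif5a2 was at -0.11 at 24 h, and Eif1b fell at 4 and 8 h. Of the 12 genes with a window that rose by at least 1.5-fold at 24 h, 4 held it (33.3%). The stretches of those 4 genes are shown 5′ to 3′ on the strand of the gene, with the E-box in capitals and the window's position of its first base, counted from the start; a gene with several annotated starts has several windows, and a stretch may lie after another start of the same gene.
Eif4a1, chr11:69672595-69672624, minus strand, position -189: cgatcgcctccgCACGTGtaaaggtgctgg
Eif4e, chr3:138527028-138527057, plus strand, position -228: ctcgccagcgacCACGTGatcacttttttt
Eif4e, chr3:138527192-138527221, plus strand, position -64: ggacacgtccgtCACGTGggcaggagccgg
Eif4g1, chr16:20672661-20672690, plus strand, position -54: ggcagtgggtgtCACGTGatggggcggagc
Eif4g1, chr16:20672730-20672759, plus strand, position 16: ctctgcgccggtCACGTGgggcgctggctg
Eif5a, chr11:69920791-69920820, minus strand, position -178: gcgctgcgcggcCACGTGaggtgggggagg
Eif5a, chr11:69921443-69921472, minus strand, position -74: aaggggcggggtCACGTGtgtgcgtcatcc
Elk-type ETS sites, searched as CCGGAAGT on both strands, were in windows of 8 of the 43 genes (18.6%, against 4.31% of all genes). These were Eif2ak1, Eif2b2, Eif2b4, Eif3d, Eif3l, Eif4e2, Eif5a, and Eif5a2. Of the 12 genes that rose by at least 1.5-fold at 24 h, 2 held this site (16.7%), and of the 30 other tested genes 6 did (20%). The cyclic AMP response element TGACGTCA was in 0 of 43 (all genes 2.03%), and TGATGNAA, the site of the stress factor ATF4, was in 1 (2.33%; all genes 4.51%), Eif2s3x. The shares for all genes count every gene with a window, whether or not these cells expressed it, and no share over the tested genes alone was made. The 43 genes had 56 windows and the 27025 genes had 32851. These are matches of letters and no measure of binding.

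The 4E-binding proteins, which hold eIF4E away from the scaffold until they are phosphorylated, split between the paralogs. Eif4ebp1 was at 193, 201, and 207 CPM with vehicle and 281, 282, and 277 CPM with FGF6 at 4 h. At 8 h both groups were lower, at 99.8, 86.6, and 86.4 CPM with vehicle and 171, 167, and 160.2 CPM with FGF6, and at 24 h they were at 135, 126, and 120.2 CPM and 244, 262, and 269 CPM. The groups were separate at every time, and its log2 fold changes were 0.48 ± 0.0483, 0.87 ± 0.0501, and 1.02 ± 0.0494 (edgeR adjusted p = 3.16e-09, 4.82e-14, and 8.95e-16). The fall of Eif4ebp1 in vehicle cells between 4 and 8 h, by 1.14 on the log2 scale (edgeR adjusted p = 3.39e-15), was larger in size than the FGF6 effect at any time. Eif4ebp2 was at 108, 106, and 107 CPM with vehicle and 105, 108, and 104 CPM with FGF6 at 24 h, and its groups overlapped at 4 and 24 h. It was called only at 8 h, by 0.0922 ± 0.0326 (edgeR adjusted p = 0.0144), a call lost with library sizes alone (0.0282) or upper-quartile factors (0.0470) and without FGF6 replicate 3 (0.0744) or vehicle replicate 1 (0.0828) or 2 (0.0849) of that time. With library sizes alone it was lower at 4 h (-0.10). Eif4enif1, which carries eIF4E into the nucleus, rose by 0.22, 0.12, and 0.21, of which the 8 h call was lost with library sizes alone (0.0528) or upper-quartile factors (0.0716).

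**Figure D3:**
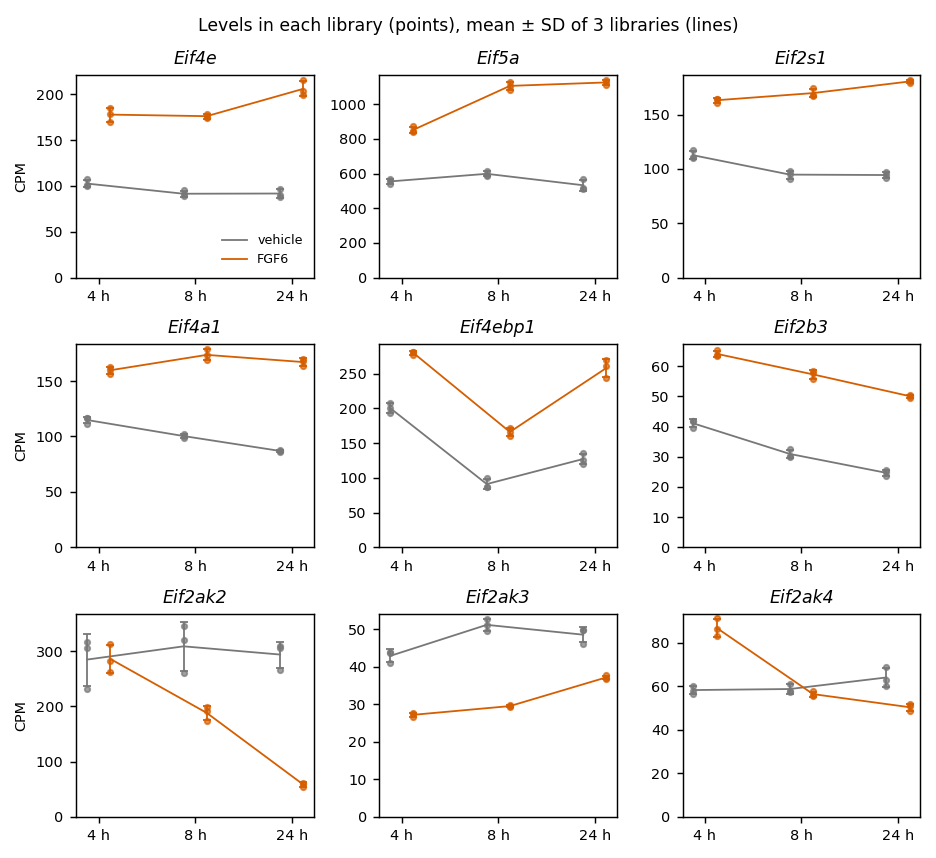
Levels in CPM (vertical axes, from 0) of 9 genes at 4, 8, and 24 h in each vehicle library (grey points) and FGF6 library (orange points), with lines through the means and error bars of 1 SD over 3 libraries. Eif4e, Eif5a, Eif2s1, Eif4a1, Eif4ebp1, and Eif2b3 are above vehicle at all times, Eif2ak2 falls with FGF6 from 286 CPM at 4 h to 58.3 CPM at 24 h, and Eif2ak4 crosses from above to below vehicle.

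Ratios between related genes within a library do not depend on how libraries are scaled. They were taken as log2 ratios of CPM per kb of exon, and 30 such comparisons were made with a two-sided exact permutation test, for which 0.1 is the smallest p that 3 libraries against 3 can give. Eif4a1 over Eif4a2 was -1.07 ± 0.029 with vehicle and -0.279 ± 0.0878 with FGF6 at 24 h, with no overlap (SD, n = 3, exact p = 0.1, adjusted p = 0.115). The counted level of Eif4a2 thus stayed above that of Eif4a1 by a smaller margin. Which of these mRNAs is more abundant is not settled by the counts. Shared sequence is 28.4% for Eif4a1 and 13.6% for Eif4a2, and the treatment of reads with several places is not given. The order also rests on the length of all annotated exons. Eif4e over Eif4e3 went from 1.42 ± 0.112 to 3.5 ± 0.177 at 24 h, or from 2.68-fold to 11.3-fold, again with no overlap. Eif4ebp1 over Eif4ebp2 went from 1.64 ± 0.0774 to 2.68 ± 0.0753 at 24 h, and its groups were separate as well. The ratio of the cap-binding protein to its inhibitor did not separate late: Eif4e over Eif4ebp1 was -2.42 ± 0.0202 with vehicle and -2.11 ± 0.0727 with FGF6 at 4 h (exact p = 0.1), but -1.44 ± 0.14 and -1.37 ± 0.0691 at 8 h (exact p = 0.5) and -1.92 ± 0.151 and -1.78 ± 0.131 at 24 h (exact p = 0.4). Both mRNAs rose, and their ratio at 24 h differed between groups by 0.144, within the spread of the libraries.

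**Figure D4:**
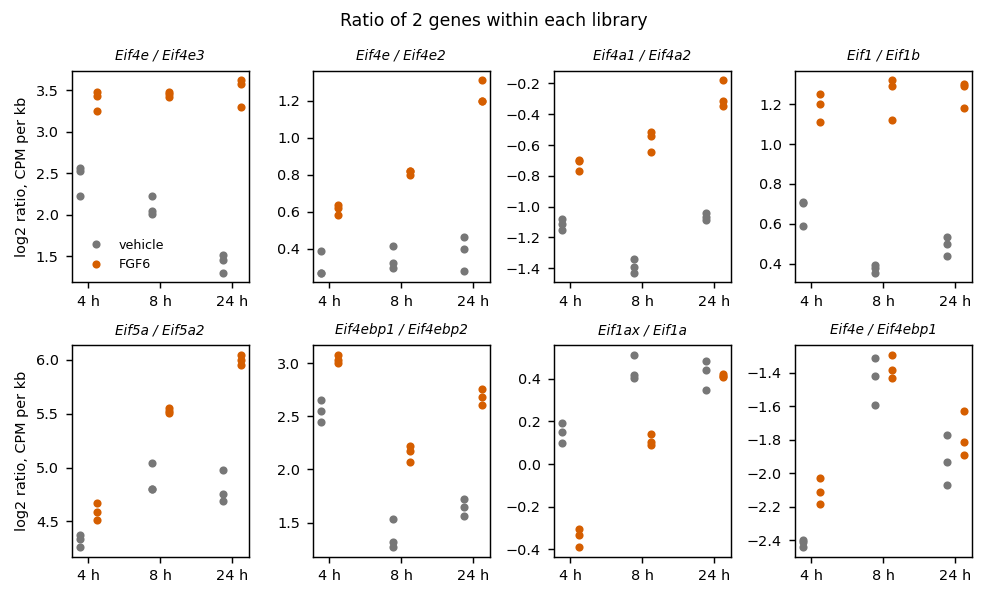
Log2 ratio of the CPM per kb of 2 genes in each vehicle library (grey) and FGF6 library (orange) at 4, 8, and 24 h, for 8 pairs; each panel has its own vertical axis. Eif4a1 over Eif4a2, Eif1 over Eif1b, Eif5a over Eif5a2, and Eif4e over its paralogs are higher with FGF6 at each time, Eif4e over Eif4ebp1 overlaps at 8 and 24 h, and Eif1ax over Eif1a is lower with FGF6 at 4 and 8 h and overlaps at 24 h.

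For eIF2, the factor that carries the initiator tRNA, the alpha subunit moved most. Eif2s1, at chromosome 12 from 78861819 to 78887010 on the plus strand, was at 111, 109.9, and 117 CPM with vehicle and 161, 164, and 165 CPM with FGF6 at 4 h, and at 94.2, 91.4, and 97.7 and 182, 180.5, and 179 CPM at 24 h. No libraries overlapped at any time, and the log2 fold change was 0.54 ± 0.0348, 0.84 ± 0.0351, and 0.94 ± 0.0353 (edgeR adjusted p = 8.77e-13, 6.43e-17, and 5.01e-18). The beta subunit gene Eif2s2 rose by 0.21, 0.34, and 0.64, and the gamma subunit gene Eif2s3x by 0.39, 0.46, and 0.52; 34.6% of the 50-base stretches of Eif2s3x occur elsewhere, mainly in a pseudogene. Eif2a, a separate factor that can also bring initiator tRNA, rose by 0.13 to 0.15, but was not called with library sizes alone at 4 and 8 h (0.0320 and 0.0717) or with upper-quartile factors at 4 h (0.0767). Eif2d, which acts in non-canonical initiation and recycling, was at 49.8, 47.9, and 47.4 CPM with vehicle and 41.8, 40.1, and 45.4 CPM with FGF6 at 8 h. It fell at 4 h (-0.20 ± 0.054, edgeR adjusted p = 0.00282) and 8 h (-0.19 ± 0.0512, adjusted p = 0.00189) and overlapped at 24 h (0.0994, adjusted p = 0.0783), where it became a rise of 0.15 (adjusted p = 0.0147) without vehicle replicate 3. The 24 h value also passed with DESeq2 (0.12), with only the libraries compared (0.11), and without FGF6 replicate 1 (0.13) or 3 (0.14), and the fall at 4 h did not pass without FGF6 replicate 3 (-0.14).

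All 5 genes of eIF2B, the exchange factor that returns eIF2 to its GTP-bound form, were higher at 24 h (all genes 35.9%). At 4 h, 3 were higher and 1 was lower (all genes 28.6% and 34.2%). With library sizes alone or upper-quartile factors 2 were lower at 4 h, as Eif2b4 was then called (-0.18 and -0.14). Of all 15071 genes, 6495 and 5900 were lower at 4 h under these scalings. Eif2b3, the gamma subunit, was at 39.6, 41.8, and 41.9 CPM with vehicle and 63.8, 63.5, and 65.3 CPM with FGF6 at 4 h, and at 25, 25.5, and 23.5 and 50.5, 50.3, and 49.5 CPM at 24 h. Its log2 fold change was 0.64 ± 0.0424, 0.89 ± 0.0438, and 1.02 ± 0.0457 (edgeR adjusted p = 1.87e-16 at 24 h). Its level went down with time in both groups, in vehicle cells by 0.73 on the log2 scale from 4 to 24 h, and the FGF6 libraries stayed above. The catalytic subunit Eif2b5 came late: it was at 107, 105, and 108 CPM with vehicle and 103, 98.1, and 101 CPM with FGF6 at 4 h, and at 98.3, 103, and 98.3 and 144, 151, and 151 CPM at 24 h. The log2 fold change was -0.0810 at 4 h (edgeR adjusted p = 0.0383), 0.11 at 8 h (adjusted p = 0.00452), and 0.57 ± 0.0332 at 24 h (adjusted p = 3.58e-14). The call at 4 h was lost with DESeq2, with either other filter, with only the libraries compared (-0.0735 to -0.0399), and when any library of that time but vehicle replicate 2 was left out (-0.0780 to -0.0222), and that at 8 h with library sizes alone (0.0475) or upper-quartile factors (0.0663). The difference between 4 and 24 h was 0.65 (adjusted p = 1.16e-11). Eif2b1, Eif2b2, and Eif2b4 rose by 0.22, 0.85, and 0.15 at 24 h.

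The kinases that phosphorylate eIF2 alpha and thereby shut down initiation in stress had 0 genes higher and 3 of 4 lower at 24 h, when 35.9% of all genes were higher and 37.9% lower. Without vehicle replicate 3 of that time, 1 was higher (Eif2ak1) and 3 lower. Eif2ak2, the kinase PKR that is activated by double-stranded RNA, is encoded on chromosome 17 from 78852564 to 78882573 on the minus strand. At 4 h its libraries overlapped, at 231, 306, and 317 CPM with vehicle and 282, 313, and 262 CPM with FGF6. At 8 h they were at 259.6, 321, and 346 and 198, 174, and 192 CPM, and at 24 h at 267, 305, and 309.5 and 59.6, 53.3, and 62 CPM. All FGF6 libraries lay below all vehicle libraries at 8 and 24 h. Its log2 fold changes were 0.00679 ± 0.0965 (edgeR adjusted p = 0.959), -0.71 ± 0.0975 (adjusted p = 4.25e-07), and -2.33 ± 0.105 (adjusted p = 2.04e-16), a 5.04-fold fall at 24 h and the farthest move of any initiation factor gene tested. The difference between 4 and 24 h was -2.34 (adjusted p = 4.08e-13). The vehicle libraries spread widely at 4 and 8 h, with an SD of 47.0 and 44.3 CPM.

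Eif2ak2 is known as an interferon-inducible gene, and the pattern of GAAA, any NN, and GAAA, shared by interferon response elements, was searched on both strands in the same windows. It was in windows of 4 of 43 genes (9.30%, against 3.99% of all genes with a window). In Eif2ak2, shown here because it fell the farthest, the pattern began 19 bases into the transcript. The stretch below is chr17:78882535-78882564 on the minus strand, positions 9 to 38 after the start (RefSeq, GRCm38.p6), with the pattern in capitals.
Eif2ak2: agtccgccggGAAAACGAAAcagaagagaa
The other 3 genes with a match were Eif2s1, Eif2s3x, and Eif3a, which rose at all 3 times.

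Eif2ak3, the kinase PERK of the endoplasmic reticulum, was lower already at 4 h. It was at 44.1, 43.7, and 41 CPM with vehicle and 26.6, 27.7, and 27.3 CPM with FGF6 at 4 h, at 52.9, 51.2, and 49.5 and 29.9, 29.5, and 29.2 CPM at 8 h, and at 46.2, 49.8, and 49.8 and 37.8, 37.1, and 36.8 CPM at 24 h. The groups were apart at every time, most at 8 h. In log2 units the effect was -0.66 ± 0.0455, -0.79 ± 0.0445, and -0.38 ± 0.044 (edgeR adjusted p = 3.01e-12, 2.61e-14, and 1.88e-08), and it was smaller in size at 24 h than at 8 h by 0.41 (adjusted p = 7.19e-06). Eif2ak4, the kinase GCN2 that senses uncharged tRNA, was at 56.6, 57.9, and 60.2 CPM with vehicle and 86.4, 91.2, and 82.9 CPM with FGF6 at 4 h. At 8 h its groups overlapped (61.2, 57.7, and 57.2 and 55.6, 57.7, and 55.8 CPM; called lower, at -0.12, with library sizes alone only), and at 24 h the order was turned, at 62.9, 69, and 60.2 and 50.9, 51.6, and 48.5 CPM. It rose by 0.58 ± 0.0477 at 4 h (edgeR adjusted p = 8.61e-11) and fell by 0.35 ± 0.0493 on the log2 scale at 24 h (adjusted p = 6.17e-07), a difference of -0.93 (adjusted p = 1.96e-11). Eif2ak1, the haem-regulated kinase, had small values of 0.13, 0.0970, and 0.0614, called at 4 and 8 h, and at 24 h called only without vehicle replicate 3 (0.11, adjusted p = 0.0449). The calls at 4 and 8 h were lost with library sizes alone (0.0245 and 0.0331) and upper-quartile factors (0.0691 and 0.0518), at 4 h without vehicle replicate 2 (0.0936), and at 8 h without any of 4 libraries (0.0657 to 0.10). Some exon bases of Eif2ak1 (659), Eif2ak2 (221), and Eif2ak3 (485) overlap genes on the other strand, and the strand setting of the counting is not given in the sources used here.

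The genes of eIF3, the large scaffold of the small subunit, moved by modest amounts: 11 of 14 rose at 4 h, 13 at 8 h, and 12 at 24 h (all genes 28.6%, 32.4%, and 35.9%), and 1 fell at 24 h (37.9%). With library sizes alone or upper-quartile factors, 1 gene, Eif3e, was also lower at 4 and 8 h. Eif3a, the core subunit, was at 700.5, 714, and 732 CPM with vehicle and 849.9, 853, and 880.0 CPM with FGF6 at 4 h, and at 592, 605, and 625 and 875, 858, and 817 CPM at 24 h. No libraries overlapped, and the log2 fold change was 0.27 ± 0.03, 0.46 ± 0.0301, and 0.48 ± 0.0301 (edgeR adjusted p = 2.35e-08, 4.67e-13, and 1.54e-13). Eif3b, which pairs with it in the core, rose by 0.37, 0.67, and 0.84. The exception was Eif3e, which was at 297, 304, and 311 CPM with vehicle and 255, 256, and 242 CPM with FGF6 at 24 h. It was not called at 4 and 8 h (-0.0422 and -0.0486; with library sizes alone -0.14 and -0.11) and fell by 0.27 ± 0.0351 on the log2 scale at 24 h (edgeR adjusted p = 1.24e-07), while its vehicle level rose from 204 ± 5.45 CPM at 4 h to 304 ± 6.88 CPM at 24 h (SD, n = 3). Eif3f rose at 4 and 8 h (0.16, not called with library sizes alone at 0.0583, and 0.31) and was at -0.0676 at 24 h, which was not called (edgeR adjusted p = 0.144). Counts of Eif3j1 and Eif3j2, genes of the loosely held subunit, cannot be separated well. Of their 50-base stretches, 91.8% (Eif3j2) and 50.9% (Eif3j1) occur in other genes. Both are in the counts above, Eif3j2 at all 3 times and Eif3j1 at 8 h (0.78) and 24 h (1.14, with overlapping libraries). The Eif3j1 call was lost at 8 h without FGF6 replicate 1 or 2 or vehicle replicate 1 or 3. At 24 h it was lost without FGF6 replicate 2 or vehicle replicate 1. Of the 4968 exon bases of Eif3d, 2151 overlap an antisense gene, Gm17638.

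**Figure D5:**
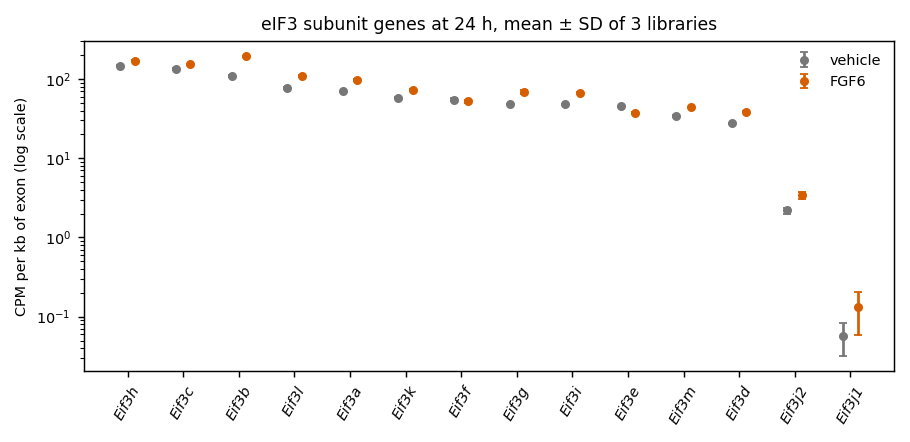
Level of each eIF3 subunit gene at 24 h in CPM per kb of exon (log axis), as mean and SD of 3 vehicle (grey) and 3 FGF6 (orange) libraries, ordered by the vehicle level. Most orange points lie above the grey ones by a small step, Eif3e lies below, and Eif3j1, at 6 to 33 counts per library, has wide error bars.

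Of the 7 genes for scanning, start codon choice, and subunit joining, 6 rose at each time (all genes 28.6%, 32.4%, and 35.9%), and 5 did at 4 h with library sizes alone or upper-quartile factors, where Eif1ax was not called (0.00911 and 0.0537). Eif1ad, a gene related to eIF1A by its domain, was at 68.2, 61.9, and 69.9 CPM with vehicle and 122, 122, and 125 CPM with FGF6 at 8 h. Its log2 fold change was 0.74 ± 0.0382, 0.88 ± 0.0392, and 0.46 ± 0.0401 at 4, 8, and 24 h (edgeR adjusted p = 9.59e-15, 2.14e-16, and 1.12e-10), and it changed by -0.42 from 8 to 24 h (adjusted p = 9.76e-07); 428 of its exon bases overlap Banf1 on the other strand. Eif1ax, the X-linked eIF1A gene, came later, at 0.11, 0.30, and 0.73, whereas Eif1a was at 0.60, 0.63, and 0.74. Eif1, the start codon gatekeeper, rose by 0.31, 0.65, and 0.77. Its paralog Eif1b went the other way early, at 39.8, 39.9, and 44.6 CPM with vehicle and 37, 34.4, and 36.1 CPM with FGF6 at 4 h, and overlapped at 24 h (42.8, 43.8, and 42.8 and 42.7, 45, and 42.4 CPM). The log2 fold change of Eif1b was -0.21 ± 0.049 at 4 h, -0.22 ± 0.0491 at 8 h, and 0.00706 ± 0.0484 at 24 h (edgeR adjusted p = 0.000647, 0.000322, and 0.902). Within libraries, Eif1 over Eif1b went from 0.49 ± 0.0493 with vehicle to 1.26 ± 0.0676 with FGF6 at 24 h (exact p = 0.1). Eif5, which makes eIF2 hydrolyse its GTP at the start codon, rose by 0.36, 0.58, and 0.77, and Eif5b, which joins the subunits, by 0.23, 0.19, and 0.33.

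Eif5a and Eif6 carry initiation factor names but work elsewhere: eIF5A, the protein that carries hypusine, helps ribosomes through elongation and termination, and eIF6 keeps the large subunit from joining too early. Eif5a, at chromosome 11 from 69916714 to 69921958 on the minus strand, was at 567, 542, and 555 CPM with vehicle and 847, 871, and 838 CPM with FGF6 at 4 h. It was at 614, 588, and 593 and 1130, 1103, and 1083 CPM at 8 h and at 569, 518, and 511 and 1111, 1127, and 1137 CPM at 24 h, with a wide gap between the groups each time. On the log2 scale the rise was 0.62 ± 0.0338, 0.88 ± 0.0339, and 1.08 ± 0.034 (edgeR adjusted p = 2.72e-14, 1.1e-17, and 1.25e-19), and it grew from 4 to 24 h by 0.46 (adjusted p = 9.57e-09). Its paralog Eif5a2 rose at 4 and 8 h (0.35 and 0.23) and was at -0.11 at 24 h (edgeR adjusted p = 0.0484), a call lost with DESeq2, limma with voom, no filter, only the libraries compared, or the replicate block (-0.12 to -0.0938) and without any 1 library of that time but vehicle replicate 1 (-0.11 to -0.0752). Per kb of exon, Eif5a exceeded Eif5a2 27.9-fold with vehicle and 63.9-fold with FGF6 at 24 h. Eif6 was at 168, 164, and 149.8 CPM with vehicle and 260.2, 263, and 266 CPM with FGF6 at 8 h, where its log2 fold change was highest. Its log2 fold change was 0.59 ± 0.0375, 0.71 ± 0.0377, and 0.56 ± 0.038 (edgeR adjusted p = 4.93e-13, 8.83e-15, and 1.01e-12).

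In order of level per kb of exon in vehicle cells at 4 h, the initiation factor genes ran from Eif5a (233 ± 5.37 CPM per kb; SD, n = 3) and Eif4g1 (179 ± 3.19) through Eif3b (156) and Eif3c (152) to Eif4e3 (3.16), Eif3j2 (2.36), Eif4ebp3 (0.600), and Eif3j1 (0.174), with Eif2s3y and Eif4e1b at 0. The cap-binding gene Eif4e was 37th of 55, at 17.1 CPM per kb, below its inhibitor Eif4ebp1 (91.2), the helicases Eif4a2 (57.2) and Eif4a1 (26.5), and the scaffold. These levels use the length of all annotated exons, which can differ from that of the transcripts the cells make.

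The FGF6 effect grew with time for many of these genes. Of the 53 effects, 42 differed between at least 1 pair of times, against 64.4% of all genes. There were 24 that differed between 4 and 8 h (edgeR interaction; all genes 30.6%), and of these 22 were more positive at 8 h and 2 more negative (all genes 15.5% and 15.1%). Between 8 and 24 h 30 differed (45.1%), 18 toward more positive and 12 toward more negative values (22.6% and 22.5%), and between 4 and 24 h 36 differed (53.5%), 27 and 9 of them in these directions (28.3% and 25.2%). Vehicle cells moved the other way early on. From 4 to 8 h in vehicle, 7 initiation factor genes went up and 21 went down (all genes 21.2% and 21.7%), and from 8 to 24 h 14 went up and 13 down (25.5% and 23.7%). Eif4a1, Eif4g1, and Eif2b3 were among those that fell in vehicle at each step. With FGF6, the means at 4, 8, and 24 h were 160, 174, and 167 CPM for Eif4a1. They were 1554, 1628, and 1631 CPM for Eif4g1, so part of the growing difference of these 2 genes lay in the vehicle libraries. Eif2b3 fell with FGF6 as well, from 64.2 to 50.1 CPM. Its growing difference lay in the steeper fall of the vehicle libraries, from 41.1 to 24.7 CPM.

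Genes that work beside the initiation factors were read from lists made by role. Over all genes tested, 28.6%, 32.4%, and 35.9% rose and 34.2%, 38.4%, and 37.9% fell at 4, 8, and 24 h, against which the list counts are to be read. Of 8 elongation factor genes, 6 rose and 1 fell at each time. Eef1e1, a scaffold of the tRNA synthetase complex listed with them by its name, rose from 27.5 CPM to 82.4 CPM at 24 h (log2 fold change 1.58), while Eef2k, the kinase that stops elongation factor 2, fell from 72.7 to 29 CPM (-1.33 ± 0.0681, edgeR adjusted p = 3.09e-15). Of 6 termination and recycling genes, 3, 5, and 6 rose at 4, 8, and 24 h and 0 fell, and Abce1, which splits ribosomes, went from 268.9 to 522 CPM at 24 h (0.96). Of 31 partners and regulators of initiation in the table, of 32 listed, 18, 20, and 22 rose and 8, 9, and 6 fell. Pabpc1, the poly(A)-binding protein that contacts eIF4G, rose to 2.15-fold at 24 h (1.11 ± 0.0284, edgeR adjusted p = 1.76e-21), and Dhps, which takes part in making the hypusine of eIF5A, rose by 0.93. Pdcd4, an inhibitor of the eIF4A helicase, fell from 58.2 to 20.8 CPM at 24 h (-1.49 ± 0.0582, adjusted p = 1.11e-17), and Mknk2, a kinase of eIF4E, from 550.7 to 239 CPM (-1.21 ± 0.0468, adjusted p = 9.44e-18). Of 12 tested genes of mTORC1 and S6 kinase, 4, 3, and 4 rose and 6, 4, and 2 fell. Deptor, an inhibitor in that complex, had 142 CPM in vehicle and 26.4 CPM in FGF6 cells at 24 h (-2.43 ± 0.0436, edgeR adjusted p = 1.34e-24), and Rptor, its scaffold, rose by 0.63.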

How the data were processed

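RNA-seq of 18 libraries (6 groups of 3) was analysed. The authors aligned reads to GRCm38 with STAR and counted them per gene with featureCounts of Subread, and deposited raw counts per gene without normalization, as the study's methods and the submitters' processing notes give. Tool versions, the strand setting, and the treatment of reads with several places are not given in the sources used here, so counts of genes with near copies or overlapping genes are uncertain.

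From the deposited counts, edgeR 4.0.16 (R 4.3.3) kept genes by filterByExpr over the 6 groups (15071 of 48023), computed TMM factors (0.951 to 1.05), and fitted its quasi-likelihood model with 6 group means and no covariate to the 18 libraries. Each time point gave a contrast of FGF6 minus vehicle, and interactions compared these effects between times. The adjustment of Benjamini and Hochberg ran over all genes tested. The study used an FDR under 0.25, which is given as an alternative, since at that threshold 75.7% to 83.4% of all genes were called. SE is the one implied by the F statistic, and the common biological coefficient of variation was 0.0458. CPM were computed over the kept genes with TMM-scaled totals. Ratios within libraries were compared with exact permutation tests (scipy 1.17.1). Floors cover counting error only.

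Symbols, positions, and exon lengths came from GENCODE M21, which held 98.5% of the gene identifiers. Shared sequence was measured as the percent of a gene's 50-base stretches found in another annotated gene.

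The genes, role lists, and pathway lists were chosen with earlier results of these data known. Values in full are given for Eif4e, Eif4a1, Eif4a2, Eif4g1, Eif4ebp1, Eif4ebp2, Eif2s1, Eif2ak3, Eif2ak4, Eif2b5, Eif3a, Eif5a, and Eif6 by role, and at each time for the 4 largest rises and 4 largest falls among called genes without overlap and at 1 CPM or more. Other genes were named after their values were seen. From each pathway list, the text names some of the largest changes. The promoter motifs were also chosen after the data were seen.

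Alternatives were limma 3.58.1 with voom, DESeq2 1.42.0, factors by upper quartile, no factors beyond library sizes, a fit to only the libraries compared, the replicate number as a block, no low-count filter, a filter of 10 or more counts in each library, an FDR under 0.25, at least 1.5-fold, and each library left out in turn. Leaving out genes with near copies was added after the data were seen. The fit was tested on simulated counts. Protein sequences were not used here.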

Additional observations from a re-analysis of the deposited data

Results flagged for a closer look

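For the genes named by the fixed rule, the FGF6 effect was compared between time points with an interaction in edgeR, and 19 of these 20 genes had at least 1 difference at an adjusted p under 0.05. Of all genes, 64.4% had one, and some of the 20 genes were picked as the largest rises or falls at a time. For each, the difference of log2 fold changes that passed with the largest size is given.

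Effects that were more positive at 24 h than at 4 h were those of Eif2b5 (0.65), Eif4g3 (0.65), Eif4ebp1 (0.54), Eif4a1 (0.47), Eif5a (0.46), Eif2s1 (0.40), Eif4g1 (0.39), Eif2b3 (0.38), Eif4e (0.37), Eif2d (0.29), and Eif3a (0.22). More negative at 24 h than at 4 h were the effects of Eif2ak2 (-2.34), Eif2ak4 (-0.93), and Eif4e3 (-0.75). Between 8 and 24 h, the effects of Eif2ak3 (0.41), Eif1b (0.23), and Eif4a2 (0.19) went up, and those of Eif1ad (-0.42) and Eif6 (-0.15) went down. The remaining gene, Eif4ebp2, had no difference that passed with all libraries. Without vehicle replicate 3 at 24 h, its effect differed between 8 and 24 h by -0.13 (edgeR interaction, adjusted p = 0.0440).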

How the results depend on the processing

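Counts of genes higher with FGF6 stayed within 1.5 times the values of the report (38, 41, and 41 at 4, 8, and 24 h) under all alternatives but the threshold of at least 1.5-fold, which gave 6, 15, and 16. Leaving out a library gave 37 to 40, 39 to 40, and 40 to 43. The 5 genes lower at 4 h became 3 with DESeq2, without a filter, and with only the libraries compared, 10 with library sizes alone, 8 with upper-quartile factors, 1 at 1.5-fold or more, and 2 to 5 without a library. At 8 h, the 5 genes lower became 8 with library sizes alone and 2 at 1.5-fold or more. Of all genes, 5152 at 4 h and 5783 at 8 h were lower as reported. These became 6495 and 6407 with library sizes alone. At 24 h, the 6 genes lower became 2 at 1.5-fold or more, and 5 to 6 without a library. Effects that differed between 4 and 8 h (24 genes) became 37 at an FDR under 0.25, 2 at 1.5-fold or more, and 20 to 25 without a library. Those between 8 and 24 h (30 genes) became 1 at 1.5-fold or more and 27 to 32 without a library, and those between 4 and 24 h (36 genes) became 6 and 34 to 37. The cause of these shifts was not tested, apart from the thresholds, which call fewer or more genes by construction. The shares of all genes with differing effects were not computed at these thresholds or without a library.

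Same-numbered libraries of vehicle and FGF6 deviated from their group means with a correlation of -0.0275 to 0.0486. This was under the 0.1 set for treating them as pairs, so they were not paired in the main fit. With 3 libraries a group, it cannot show whether same-numbered libraries shared a culture or preparation. With the replicate block, 39, 41, and 41 genes were higher and 5, 5, and 5 lower, and 26, 30, and 35 effects differed between 4 and 8, 8 and 24, and 4 and 24 h. Of all 15071 genes, 4300, 4895, and 5416 were then higher and 5165, 5791, and 5700 lower. Effects over all genes differed upward for 2363, 3447, and 4275 genes and downward for 2294, 3408, and 3798, in the same order of pairs. Not every library correlated best with its own number. Without genes that share at least 20% of their 50-base stretches, 33, 35, and 35 genes were higher and 5, 5, and 6 lower. No share of all genes was computed without such genes.

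Over the named genes, 446 of 480 values under other settings and 333 of 360 without a library kept direction and call. Values that turned sign were small and not called in the report. Eif1b at 24 h was -0.000607 with library sizes alone, -0.00754 with upper-quartile factors, -0.00117 without a filter, -0.00676 with at least 10 counts, and -0.00675 (without FGF6 replicate 2) to 0.0338 without a library. Eif2ak2 at 4 h was -0.0936 with library sizes alone, -0.0491 with upper-quartile factors, and -0.12 to 0.10 without a library. Eif4a2 was -0.0132 at 4 h with library sizes alone, and 0.0107 and 0.00726 at 8 h with DESeq2 and with only the libraries compared. Eif4ebp2 at 4 h was 0.0207 with DESeq2, 0.00450 without a filter, 0.0241 with at least 10 counts, 0.0380 with only the libraries compared, and -0.0275 to 0.0545 without a library. At 24 h it was 0.0014 with DESeq2 and -0.0171 to 0.00240 without a library. Depth limits Eif3j1 and Eif4ebp3, at 3 to 46 counts per library.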
